A study of Mus musculus with 6 samples.

Results

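The cytosolic ribosomal protein genes were taken from the RNA sequencing of whole mouse pancreas by a symbol pattern for small-subunit (Rps) and large-subunit (Rpl) proteins. Rplp0, Rplp1, Rplp2 and Rpsa were added, and the kinase genes Rps6k and the copies marked -ps were left out. The pattern does not take Rpl36al, a large-subunit gene in the files. Of 23337 symbols, 84 matched these names, and 71 of them had at least 50 counts summed over all 6 libraries, 31 of the small and 40 of the large subunit. Among the 71 are 4 symbols of paralogs or copies, Rpl22l1, Rpl7l1, Rps27l and Rps4y2, the last of which RefSeq now lists as Rps4l, a transcribed pseudogene. The genes were chosen by name and by these summed counts, which are given as a description only. Just inside the limit lay Rpl36a with 50 counts and Rps23 with 53, and just outside it lay Rpl24 with 48 counts and Rpl11 with 40.

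Mutant mice, of the line Prox1-AcOE, were Ptf1a cre/+ and carried the transgene CAG-loxP-STOP-loxP-Prox1-LacZ, in which Cre removes a stop cassette so that the broadly active CAG promoter drives Prox1, a homeobox transcription factor, and LacZ wherever Cre has acted. Control mice were Ptf1a cre/+, so both groups carried the Cre insertion at Ptf1a, a locus used by pancreatic progenitors and acinar cells. All animals were of the NMRI strain and were sampled at postnatal day 7, with 3 mutant and 3 control libraries. The series' design text describes the mutant samples as individual pancreata and the control samples as pools, whereas the extraction protocol describes individual organs throughout, so genotype and pooling cannot be told apart. No litter or processing day is stated, and p-values therefore measure the spread among these 6 samples.

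Ribosomal proteins bind ribosomal RNA to form the small subunit, which decodes messenger RNA, and the large subunit, which joins amino acids. The acinar cells that fill most of the pancreas make digestive enzymes at a very high rate and are packed with ribosomes on rough endoplasmic reticulum. The messenger RNAs of most ribosomal proteins begin with a C followed by a run of pyrimidines, the 5′ terminal oligopyrimidine or TOP element, through which mTORC1 and Larp1 set how strongly they are translated. Their genes are also known for many processed copies, reverse-transcribed from messenger RNA and scattered over the genome, which share sequence with the parent gene.

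The libraries held between 7729161 and 9957737 counts in mutants and between 7304727 and 10773223 in controls. Prox1 was at 25.5, 31.3 and 30.9 CPM (counts relative to the library's total, which was scaled by the trimmed mean of M values, TMM) in mutants and at 10.83, 7.84 and 9.13 CPM in controls, higher in every mutant than in every control as labelled, and its log2 fold change was 1.67 ± 0.15 (SE; edgeR adjusted p = 0.000239). Among the ribosomal protein genes control 1 stood apart: it had the highest CPM of the 6 libraries in 60 of the 69 genes tested (87.0%), whereas it was highest in 22.3% of all genes tested. Control 1 was also the only library with 0 counts for the Y-linked genes Ddx3y, Eif2s3y, Kdm5d and Uty, which lay between 15.03 and 58.9 CPM in the other libraries, and 3 counts in control 1 stand for 0.450 CPM. Values without control 1 are given for some results only, among them the median log2 fold change and the number of genes with all mutants below controls 2 and 3. The other results include control 1.

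Ribosomal protein genes took 1.05 ± 0.135% of all counts in mutants and 1.11 ± 0.0845% in controls (SD, n = 3 each). The share was 0.973%, 1.21% and 0.974% in mutants 1 to 3 and 1.21%, 1.08% and 1.05% in controls 1 to 3, so the groups overlapped. The 15 most abundant genes of the series took 61.8 ± 1.39% of all counts in mutants and 63.1 ± 1.20% in controls. Outside those 15 genes, the ribosomal protein share was 2.75 ± 0.273% in mutants and 3.02 ± 0.332% in controls. On the TMM-scaled library size it was 0.990 ± 0.0828% in mutants and 1.18 ± 0.127% in controls, with the highest mutant at 1.08% and the lowest control at 1.09%.

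Compared per kb of 1 chosen transcript per gene, the counted levels of the 71 genes ran from 1.07 to 1235 mean CPM per kb, with a median of 64.3. Rplp1, a protein of the flexible stalk that recruits elongation factors, was highest at 1235 CPM per kb. Rpl32, a large-subunit protein, followed at 891 CPM per kb, and Rpl4, which lines the exit tunnel, was at 827. The lower end held Rps16 at 1.18 CPM per kb and Rps23 at 1.07, both also small-subunit proteins of the assembled ribosome. Rpl32, Rps16 and Rps23 were named after their values had been seen. Without scaling for length, 28 genes averaged at least 100 CPM, 27 between 10 and 100 CPM and 16 under 10 CPM.

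Most ribosomal protein genes lay slightly lower in mutant than in control pancreas, and 1 of the 69 tested passed the threshold. The log2 fold change was negative in 67 of 69 genes, with a median of -0.30, which is a fold of 0.812, and quartiles of -0.41 and -0.22, while the median of all 13017 genes tested was 0.00. By edgeR at an adjusted p under 0.05, 0 ribosomal protein genes were called higher and 1, Rps19, was called lower, against 2.06% of all genes called in either direction, 0.545% higher and 1.51% lower. At an unadjusted p under 0.05 the counts were 0 higher and 30 lower, against 5.41% of all genes higher and 7.36% lower. With library totals alone in place of TMM, 0 were higher and 4 (5.80%) lower at that p, against 17.4% of all genes higher and 3.13% lower. DESeq2 called 0 higher and 7 of 71 (9.86%) lower, against 0.560% of all genes higher and 1.59% lower.

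In 41 of the 69 genes mutants and controls were fully apart, all with every mutant below every control, against 9.86% of all genes tested. A log2 fold change below -0.2 was found in 55 genes (79.7%), against 18.9% of all genes, and one below -0.5 in 11 genes (15.9%), against 5.25%. The members were chosen with earlier results of these data known, so these counts are descriptions and carry no test over the group. Scaling to library totals alone moved the median of all genes to 0.17 and that of the ribosomal protein genes to -0.13, with 57 of 69 negative. In whole organs, fewer cells of a type and less RNA per cell cannot be told apart.

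**Figure D1:**
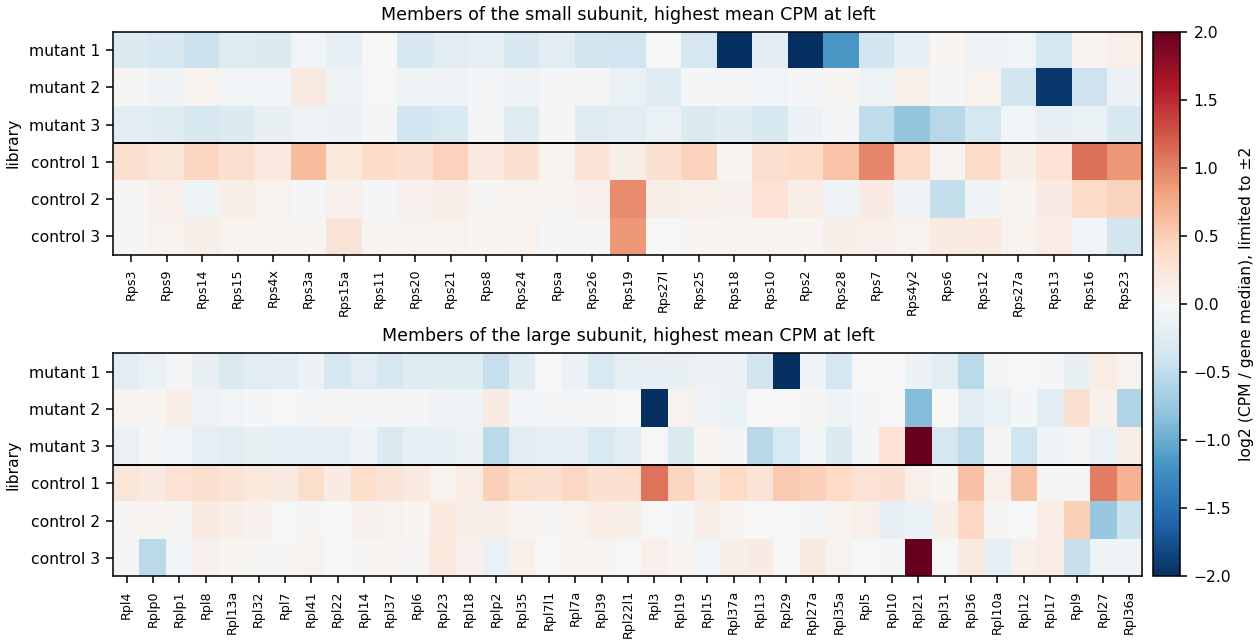
Level of each of 68 ribosomal protein genes in each library, as the log2 ratio of its CPM to the gene's median over the 6 libraries (colour, limited to ±2), with mutants above controls, the small subunit in the upper and the large subunit in the lower panel. Control 1 is the highest library in most genes, and dark cells mark Rpl29, Rps2 and Rps18 in mutant 1 and Rpl3 and Rps13 in mutant 2.

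The libraries also differed within each group. The median ratio of a gene's CPM to its own median over the 6 libraries was 0.855, 0.973 and 0.881 in mutants 1 to 3 and 1.24, 1.05 and 1.04 in controls 1 to 3. Mutant 1 had the lowest CPM in 33 genes, mutant 3 in 23 and mutant 2 in 8, while control 2 was lowest in 2, control 3 in 3 and control 1 in 0. Among all genes tested, mutants 1 to 3 were lowest in 15.5%, 19.7% and 13.3%, and controls 1 to 3 in 21.1%, 14.7% and 15.7%. With control 1 set aside, all 3 mutants lay below both control 2 and control 3 in 41 genes, against 15.8% of all genes tested. Without control 1 the median log2 fold change was -0.24 with 63 of 69 genes negative, and without mutant 2 it was -0.36 with 67 negative.

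The 30 small-subunit genes tested were all negative, with a median log2 fold change of -0.36, and the groups did not overlap in 19 of them. Of the 39 large-subunit genes tested, 37 were negative, with a median of -0.27, and 22 had no overlap. All of these were lower in mutants, against 9.86% of all genes tested that were lower without overlap. The ratio of small-subunit to large-subunit counts was 0.672, 0.712 and 0.691 in mutants and 0.761, 0.729 and 0.779 in controls, and every mutant lay below every control. It averaged 0.692 ± 0.0199 in mutants and 0.756 ± 0.0255 in controls (SD, n = 3 each). Whether the subunits differed in their change was not tested, since the members were chosen with results known.

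**Figure D2:**
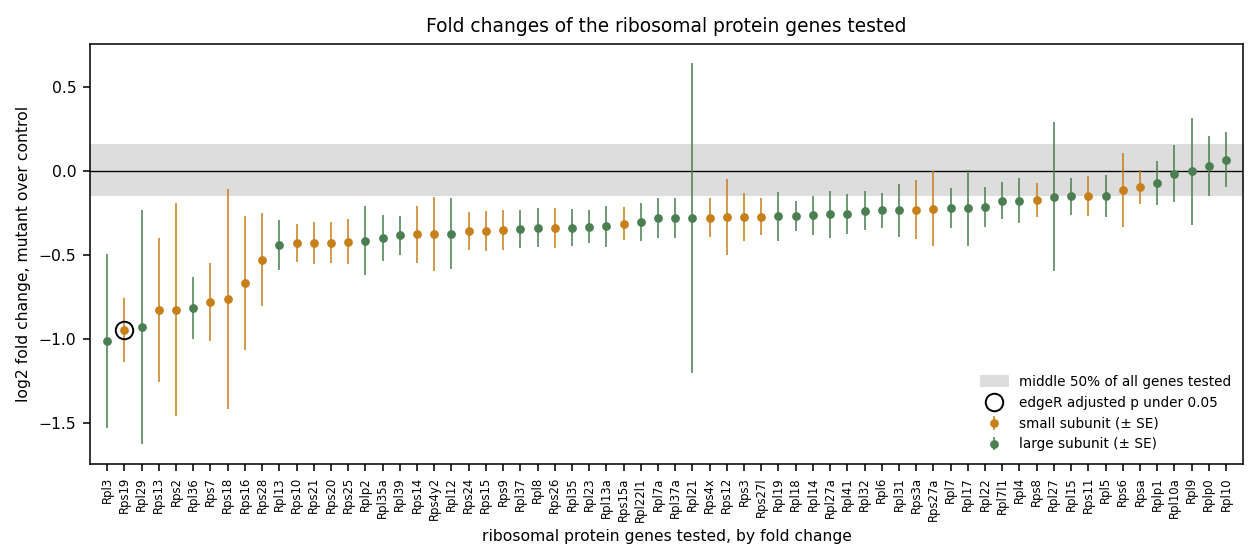
Log2 fold change, mutant over control, with its SE for 66 of the 69 ribosomal protein genes tested, in order of fold change and coloured by subunit. The grey band holds the middle 50% of all genes tested, and the circled gene, Rps19 at -0.94, is the one with an edgeR adjusted p under 0.05. Error bars are widest for Rpl21, Rpl29, Rps18 and Rps2.

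Rps19, a small-subunit protein needed to mature the small-subunit RNA and mutated in Diamond-Blackfan anaemia, fell in mutants. It was at 59.7, 72.3 and 67.4 CPM in mutants and at 85.7, 152 and 145 CPM in controls. The mutants did not overlap the controls, but control 1 lay nearer to the mutants than to the other controls, unlike its high place in most other ribosomal protein genes. The log2 fold change was -0.94 ± 0.19 (SE) and the edgeR adjusted p was 0.0351. The call was lost without mutant 1 (adjusted p = 0.171), without mutant 3 (0.137), without control 2 (0.171) or without control 3 (0.136), and also with library totals alone (0.0847), with robust dispersion (0.0696) and without mutants 1 and 2 together (0.459). The adjusted p over all alternatives lay between 2.7e-05 and 0.459. Rps19 lies on chromosome 7 from 24884592 to 24889811 (GRCm38), and 53.6% of its 50-base stretches also occur in 15 other annotated genes, all pseudogenes.

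Of the 6 genes with the highest mean CPM, not scaled for length, 5 had negative fold changes and none was called. Rpl8, a protein of the large-subunit core, was at 471, 487 and 459 CPM in mutants and at 650, 587 and 554 CPM in controls. Every mutant lay below every control, and the log2 difference was -0.34 ± 0.12 at an edgeR adjusted p of 0.232. Rpl4 was at 1103, 1326 and 1156 CPM in mutants and at 1502, 1289 and 1259 CPM in controls, so mutant 2 overlapped the controls, and the groups had a difference of -0.18 ± 0.14 on the log2 scale (edgeR adjusted p = 0.668). Rps3, at the entry of the messenger RNA channel, differed by -0.27 ± 0.14 on the log2 scale (edgeR adjusted p = 0.492), and mutant 2 overlapped the controls.

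In the 3 stalk genes the groups overlapped. Rplp0, the stalk base, was at 845, 951 and 895 CPM in mutants and at 1042, 958 and 634 CPM in controls, where control 3 was the lowest of all 6 libraries. Its log2 fold change was 0.03 ± 0.18 (edgeR adjusted p = 0.972). Rplp1 was at 585, 653 and 568 CPM in mutants and at 723, 600 and 571 CPM in controls, a log2 difference of -0.07 ± 0.13 (edgeR adjusted p = 0.897). Rplp2, named after its values had been seen, was at 49.9, 77.4 and 47.1 CPM in mutants and at 95.2, 75.02 and 62.3 CPM in controls, where mutant 2 lay above controls 2 and 3.

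The other genes nearest to no change or above it were large-subunit genes of low count. Rpl10, which joins the large subunit late in its maturation, had the highest log2 fold change, 0.07 ± 0.17 (edgeR adjusted p = 0.922), with 10.2, 9.98 and 12.3 CPM in mutants and 12.5, 8.95 and 9.80 CPM in controls. Rpl9 was at -0.00 ± 0.32 (edgeR adjusted p = 0.999) from 17 to 32 counts a library, and Rpl10a at -0.01 ± 0.17 (edgeR adjusted p = 0.989) from 48 to 70 counts. In these 3 genes a difference of the size of the group's median is under 2 SE.

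Rpl36, a large-subunit protein, came nearest to the threshold after Rps19. It had 48, 50 and 47 counts in mutants and 67, 81 and 79 in controls, with every mutant below every control, and differed by -0.82 ± 0.19 on the log2 scale at an edgeR adjusted p of 0.0614. Rps10 and Rps20 of the small subunit had log2 fold changes of -0.43 and -0.43 and edgeR adjusted p-values of 0.101 and 0.144. None of the 3 had overlapping groups, and all 3 were named after their values had been seen. Among the genes that DESeq2 called lower were Rps9, Rps15, Rps20, Rps21 and Rpl8 besides Rps19.

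Rps7, Rps24 and Rps26 of the small subunit and Rpl35a of the large one are examples of genes that were lower in every mutant than in every control without passing the threshold, and they were picked after their values had been seen. Rps7 had 115, 114 and 100 counts in mutants and 186, 145 and 159 in controls, with a log2 difference of -0.78 ± 0.23 (edgeR adjusted p = 0.156). Rps24 was at 99.1, 118 and 105 CPM in mutants and at 153, 130 and 131 CPM in controls (log2 difference -0.36 ± 0.11, edgeR adjusted p = 0.187). Rps26 and Rpl35a were fully apart as well, at log2 differences of -0.34 ± 0.12 and -0.40 ± 0.14 and edgeR adjusted p-values of 0.258 and 0.244.

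Among proteins with a signalling role outside or on the ribosome, Rpl5 and Rpl23, which bind Mdm2 when ribosome assembly is disturbed, gave different pictures. Rpl5 was at 14.7, 14.2 and 14.1 CPM in mutants and at 17.7, 15.6 and 14.4 CPM in controls, so mutant 1 overlapped control 3 (log2 difference -0.15 ± 0.13, edgeR adjusted p = 0.710). Rpl23 was at 75.1, 84.8 and 78.0 CPM in mutants and at 93.8, 102 and 103 CPM in controls, fully apart and with control 1 the lowest control (log2 difference -0.33 ± 0.10, edgeR adjusted p = 0.145). Rps6, the substrate of the S6 kinases, was at 9.81, 9.28 and 6.49 CPM in mutants and at 9.92, 6.85 and 10.9 CPM in controls, and the groups overlapped (log2 difference -0.11 ± 0.22, edgeR adjusted p = 0.899). Rps27a, made as a fusion with ubiquitin, was at 3.62, 2.90 and 3.59 CPM in mutants and at 4.06, 3.87 and 3.94 CPM in controls, fully apart though from only 25 to 41 counts a library (log2 difference -0.22 ± 0.22, edgeR adjusted p = 0.761). These 4 genes were named after their values had been seen.

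The spread of the ribosomal protein genes over the 6 libraries was wider than that of all genes above the same level. Among the 55 tested with a mean of at least 10 CPM the median coefficient of variation was 15.4% and the 90th percentile 38.5%. Over all 7671 genes tested at that level, the median was 11.5% and the 90th percentile 21.6%. These coefficients were taken over mutants and controls together, so they also hold the difference between the groups.

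The paralogs that passed the count limit showed the same sign. Rpl22l1, a paralog of Rpl22 in the large subunit, was at 43.0, 49.0 and 42.6 CPM in mutants and at 62.6, 53.6 and 49.98 CPM in controls, with no overlap and a log2 difference of -0.30 ± 0.11 (edgeR adjusted p = 0.290). Rps27l, a paralog of Rps27, was at 85.5, 71.7 and 77.8 CPM in mutants and at 106, 92.4 and 85.7 CPM in controls, where the highest mutant lay just under the lowest control (log2 fold change -0.27 ± 0.11, edgeR adjusted p = 0.343). Rpl7l1 differed by -0.18 ± 0.11 on the log2 scale (edgeR adjusted p = 0.573) and Rps4y2 by -0.37 ± 0.22 (edgeR adjusted p = 0.544). The restricted paralogs Rpl3l of muscle and Rpl39l of testis had 12 and 8 counts in all, and Rpl10l of testis had 0 in every library, where 3 counts stand for 0.285 to 0.450 CPM.

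A few genes lay far below the rest in a single library, in each case a mutant. The rule used here asks for a lowest library under 0.25 of the median of the other 5, and Rpl29, Rps2 and Rps18 met it in mutant 1 and Rpl3 and Rps13 in mutant 2. Among genes with a median of at least 50 counts in the other libraries it held for 4 of 61 ribosomal protein genes (6.56%), against 59 of 9947 genes (0.593%). With the second lowest library as the yardstick, chosen after the data had been seen, it held for the same number, 4 of 61, against 16 of 9947 (0.161%). These genes are part of how the group was picked, so the counts are descriptions.

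Rpl29, a protein of the large-subunit surface, had 2, 209 and 195 counts in mutants and 231, 217 and 252 in controls. Mutant 1 was lowest by far, at 0.190 CPM, while mutants 2 and 3 were at 24.3 and 19.5 CPM, against 34.7, 24.0 and 24.2 CPM in controls. Its log2 fold change was -0.93 ± 0.70 (edgeR adjusted p = 0.659) and moved to -0.33 without mutant 1. Rps2, near the channel through which messenger RNA enters, had 20, 363 and 399 counts in mutants and 370, 429 and 463 in controls, again with mutant 1 alone far below. The log2 difference of -0.82 ± 0.63 (edgeR adjusted p = 0.668) became -0.26 without mutant 1.

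Rps18, in the head of the small subunit, had 33, 612 and 614 counts in mutants and 497, 701 and 785 in controls. Mutant 1 stood alone here too, and the log2 difference of -0.76 ± 0.65 (edgeR adjusted p = 0.711) became -0.20 without it. Rps28, also of the small subunit and named after its values had been seen, had 158, 298 and 331 counts in mutants and 335, 293 and 380 in controls, so its lowest library was mutant 1 as well, though not under 0.25 of the others. Rps28 and Rps18 lie on the same chromosome within 250 kb of each other, at 33823036 to 33824562 and 33951998 to 33955665 on chromosome 17.

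Rpl3, which reaches towards the centre where peptide bonds form, was low in mutant 2. It had 388, 49 and 414 counts in mutants and 582, 372 and 459 in controls, where control 1 was the highest. It had the most negative log2 fold change of the group, -1.01 ± 0.52 (edgeR adjusted p = 0.474), which became -0.53 without mutant 2 and -0.59 without control 1. Rps13 had 12, 3 and 13 counts in mutants and 12, 15 and 17 in controls, too few to set its low value in mutant 2 apart from counting error. Its log2 fold change was -0.83 ± 0.43 (edgeR adjusted p = 0.482).

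Rpl21, named after its values had been seen, was split in another way. It had 27, 13 and 200 counts in mutants and 20, 23 and 235 in controls, so mutant 3 and control 3 were high together and the other 4 libraries low. Its log2 difference of -0.28 ± 0.92 (edgeR adjusted p = 0.949) had the widest error of the group. Without 8 genes picked after their values had been seen, namely Rpl29, Rps2, Rps18, Rpl3, Rps13, Rps28, Rpl21 and Rps19, the remaining 61 had a median log2 fold change of -0.28, with 59 negative.

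**Figure D3:**
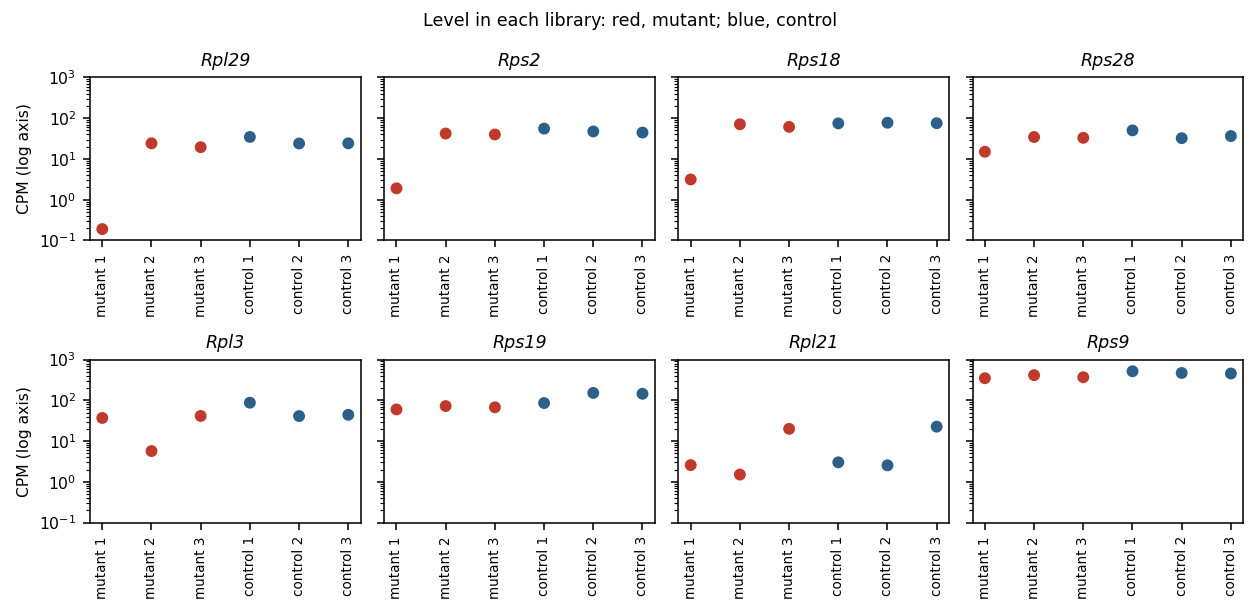
CPM on a log axis in each library (red, mutants; blue, controls) for Rpl29, Rps2, Rps18, Rps28, Rpl3, Rps19 and Rpl21 and for Rps9 as an even one. Rpl29, Rps2 and Rps18 are far down in mutant 1 with 2, 20 and 33 counts, Rpl3 is down in mutant 2 with 49 counts, and Rpl21 is high in mutant 3 and control 3 with 200 and 235 counts.

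Genes beside those 4 did not show such a drop in the same library. In mutant 1, 12 genes within 250 kb of Rpl29 (chromosome 9, 106428889 to 106431568) lay between 0.645 and 1.26 of the median of the other libraries. Near Rps2 (chromosome 17, 24718121 to 24721927) 21 genes lay between 0.633 and 1.22, and near Rps18 22 genes lay between 0.435, which was Rps28, and 1.15. In mutant 2, 9 genes near Rpl3 (chromosome 15, 80077781 to 80083406) lay between 0.543 and 1.40. All of these positions are on GRCm38, and neighbours were kept at a mean of at least 5 CPM.

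These genes share much of their transcript with other annotated genes, so part of their reads could have been counted elsewhere or not at all, depending on how reads with several matches were treated, which is not given in the sources used here. Rpl29 shared 66.8% of its 50-base stretches with 84 other genes, of which 81 are pseudogenes, Rps2 79.0% with 71, Rps18 86.7% with 13 and Rpl3 85.6% with 26. Sharing was as high in genes without such a drop, such as Rpl10 at 92.1% and Rpl7a at 81.2%, named after their values had been seen. Their lowest libraries were at 0.878 and 0.873 of the median of the other 5. In the coding part, 42 of 431 stretches of Rpl29 occurred in no other annotated transcript, 132 of 830 of Rps2, 50 of 407 of Rps18, 50 of 1160 of Rpl3 and 0 of 431 of Rpl21, against 963 of 1208 of Rpl4. The most widely shared 50-base coding stretch of each, from the GENCODE M21 transcripts, is shown because a read from it could not be assigned to the parent gene by sequence alone, and it is held by 32 other genes for Rpl29, 33 for Rps2, 7 for Rps18, 16 for Rpl3 and 44 for Rpl21. The stretches are all lower case since every base is shared.
Rpl29: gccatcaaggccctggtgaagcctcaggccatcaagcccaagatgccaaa
Rps2: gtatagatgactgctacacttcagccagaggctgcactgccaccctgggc
Rps18: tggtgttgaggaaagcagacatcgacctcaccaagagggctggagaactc
Rpl3: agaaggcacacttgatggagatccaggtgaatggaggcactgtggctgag
Rpl21: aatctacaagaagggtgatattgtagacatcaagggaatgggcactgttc

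Few of the copies have counts of their own in the files. Uimc1 holds 50% of all 50-base stretches of the Rpl29 transcript. It was at 24.2, 24.5 and 26.5 CPM in mutants and at 25.3, 26.7 and 23.4 CPM in controls, so mutant 1 lay inside the range of the controls. The 6 symbols marked -ps in the files were too low to be tested. The part of shared sequence in the single low libraries was not tested.

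Across the group, 33 of 71 genes shared at least 50% of their 50-base stretches with other genes and the median share was 48.5%. The mitochondrial ribosomal protein genes had a median of 0 and 1 of 76 at 50% or more. The 28 ribosomal protein genes of at least 100 CPM had a median share of 34.2%, the 27 of 10 to 100 CPM one of 50.7% and the 16 under 10 CPM one of 78.1%. Over the 84 symbols Spearman's rho of the shared percentage with mean CPM per kb was -0.24, as a description across genes that come from the same libraries. The same measure against the log2 fold change was -0.00 over the 69 genes tested, and the 38 tested genes with under 50% shared had a median log2 fold change of -0.33, with 37 negative. The percentage covers the whole chosen transcript, so a long part outside the coding sequence can lower it. Rpl21 had 26.2% over 1856 bases, although 0 of its 431 coding stretches occurred in no other gene. A low percentage therefore need not mean a coding sequence free of copies.

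**Figure D4:**
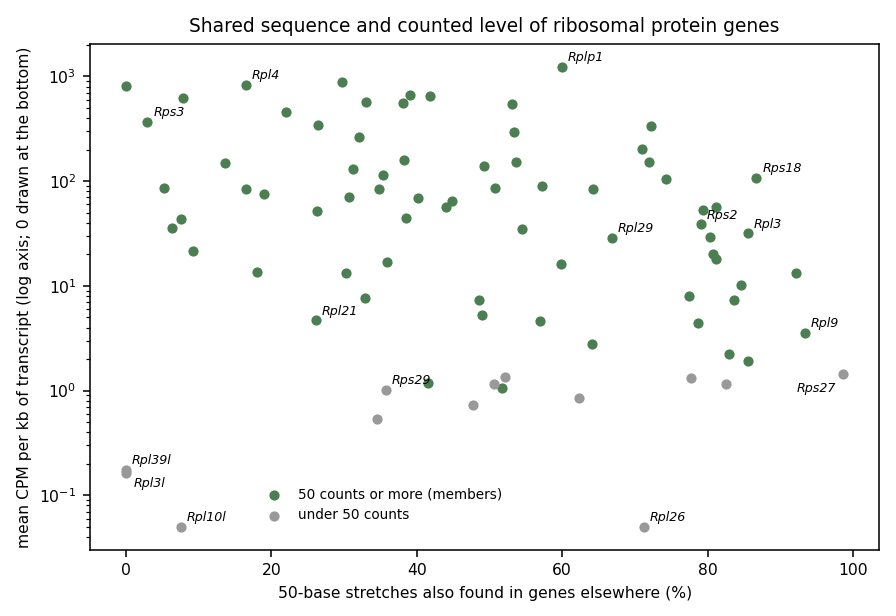
Mean CPM per kb of transcript (log axis, with levels of 0 drawn at the bottom) against the percentage of 50-base stretches also found in annotated genes elsewhere, for the 71 ribosomal protein genes with at least 50 counts (green) and the 13 symbols under 50 (grey). Rplp1 is highest at 1235 CPM per kb with 60.0% shared, and Rpl26 is at 0 with 71.3% shared.

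The 13 symbols left out by the count limit include proteins that every ribosome carries. Rpl26, at the exit of the tunnel, had 0 counts in all 6 libraries although 49 of its 386 coding stretches occur in no other annotated gene. Rps29 had 22 counts, Rpl30 23, Rps27 28, Rpl38 28, Rpl34 29, Rpl28 33 and Rpl23a 35 in all libraries together, and these 7 were named with Rpl26 after their values had been seen. The shared percentage ran from 34.5% for Rpl28 to 98.6% for Rps27 among those 7. Such counts stand far below those of Rpl4, with 69354 in all, and with the treatment of reads with several matches unknown, the levels of these messenger RNAs are uncertain.

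Several other parts of the translation machinery were examined for the same offset. The list of translation factors and other genes whose messenger RNAs are known for TOP elements had a median log2 fold change of -0.16, with 15 of 17 negative. With library totals alone, where the median of all genes was likewise higher, the median of this list was 0.02 and 6 were negative. EdgeR called 0 of the 17, and DESeq2 called 2 lower, against 1.59% of all genes. At an unadjusted edgeR p under 0.05, 3 (17.6%) were lower and 0 higher, against 7.36% and 5.41% of all genes. In this list Tpt1, a growth-related protein with a classical TOP element, was at 23.1, 35.6 and 19.1 CPM in mutants and at 56.4, 55.8 and 37.7 CPM in controls, without overlap (log2 fold change -0.95 ± 0.23, edgeR adjusted p = 0.0717). Eef1b2, a nucleotide exchange factor of translation elongation, was at 322, 380 and 344 CPM in mutants and at 486, 426 and 419 CPM in controls (log2 fold change -0.35 ± 0.12, edgeR adjusted p = 0.239). Both were named after their values had been seen.

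A further list held genes for fused precursors or for ribosome-bound proteins under other symbols, and Rpl36al, which the symbol pattern leaves out. Of the 4 tested, 0 were called by edgeR or DESeq2, and the median was -0.29. At an unadjusted edgeR p under 0.05, 1 (25%) was lower, against 7.36% of all genes. Gnb2l1, the older symbol of the small-subunit scaffold Rack1, was at 938, 1114 and 960 CPM in mutants and at 1394, 1134 and 1132 CPM in controls, where mutant 2 lay just under the lowest control (log2 fold change -0.28 ± 0.14, edgeR adjusted p = 0.449). Fau, a ubiquitin-like sequence fused to a small-subunit protein, was at 1.43, 1.97 and 1.40 CPM in mutants and at 2.71, 1.88 and 1.44 CPM in controls, with overlap (edgeR adjusted p = 0.798).

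The offset of the median was not seen in the other lists on ribosomes. The 74 mitochondrial ribosomal protein genes tested had a median log2 fold change of 0.01, with 39 positive and 35 negative, and 0 were called. At an unadjusted edgeR p under 0.05, 5 of them (6.76%) were lower and 0 higher, against 7.36% and 5.41% of all genes, and DESeq2 called 0. Without overlap, 11 (14.9%) were lower and 4 higher, against 9.86% and 9.13% of all genes tested. The 49 ribosome assembly genes had a median of 0.01 with 27 positive, and the 7 dedicated chaperones of ribosomal proteins a median of 0.04 with 4 positive. The 23 genes of mTORC1 and related regulators had a median of -0.00 with 11 positive and 12 negative. At an unadjusted p under 0.05, 1 assembly gene was higher and 1 lower and no chaperone or regulator passed, and neither edgeR nor DESeq2 called a gene of these lists. With library totals alone the medians of the mitochondrial, assembly, chaperone and regulator lists were 0.17, 0.18, 0.21 and 0.15, beside 0.17 for all genes. Their differences from the ribosomal protein genes were not tested.

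**Figure D5:**
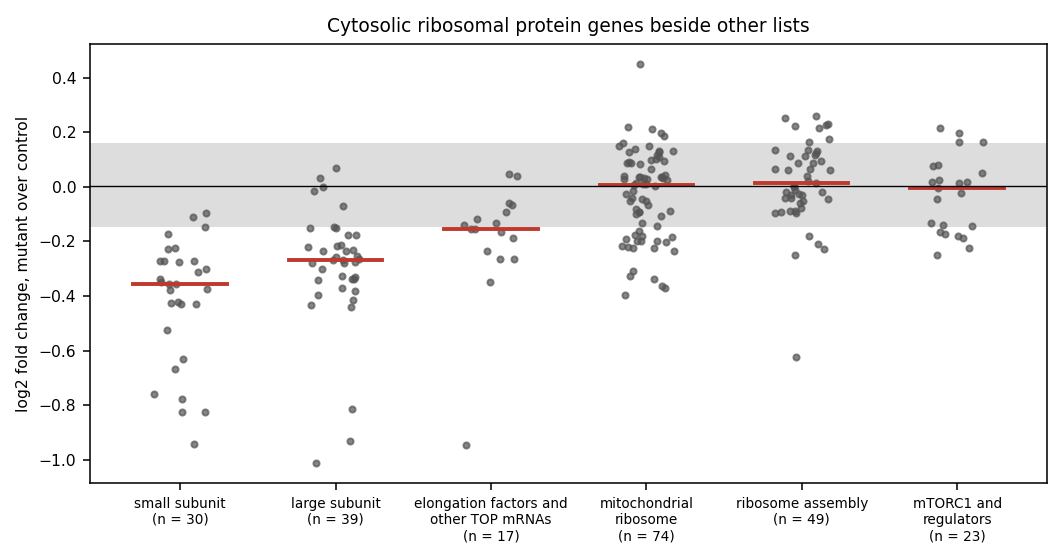
Log2 fold change, mutant over control, of each tested gene (points) and the list median (red line) for both subunits and 4 further lists, over the middle 50% of all genes tested (grey). The medians are -0.36 and -0.27 for the small and large subunits, -0.16 for elongation factors and other TOP messenger RNAs, and between -0.00 and 0.01 for the remaining lists.

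The starts of the genes were read for the TOP element. RefSeq start regions (GRCm38.p6) were matched for 53 of the 71 genes. Where a gene had several annotated starts, the one with the longest run of C and T was kept, in every list alike, which raises all shares. A run of at least 8 letters that are each C or T was present in 20 of the 53 (37.7%). It had to lie on the gene's strand and touch the 5 bases on either side of the kept start. The share over all 27025 genes of the table was 11.0%, and it was 7 of 67 for mitochondrial ribosomal protein genes and 2 of 44 for ribosome assembly genes. The 20 genes with such a run had a median log2 fold change of -0.31, with 20 negative and 14 without overlap, and the 31 tested genes with a shorter run one of -0.28, with 29 negative and 17 without overlap. Of all genes tested, 9.86% were lower without overlap. A shorter run says only that the letters are absent at the gene's annotated starts, which can lie some bases from the start in use.

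The run covered the annotated first base itself in 13 of the 20 and lay wholly to one side of it in the others. Windows of 30 bases around the kept start, which need not be the outermost start of the gene, show where the letters sit. They are given for 5 genes whose run covers that first base, for Rpl19, whose run ends just before it, and for Rps3 and Rps19 with shorter ones. Capitals mark the longest run of C and T touching the 5 bases on either side, and the annotated first base of the transcript is letter 16.
Rps9 (chr7:3704026-3704055, plus strand): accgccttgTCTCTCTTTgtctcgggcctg
Rpl14 (chr9:120571502-120571531, plus strand): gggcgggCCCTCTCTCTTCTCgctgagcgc
Rplp2 (chr7:141447636-141447665, plus strand): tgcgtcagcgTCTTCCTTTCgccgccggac
Rps18 (chr17:33955651-33955680, minus strand): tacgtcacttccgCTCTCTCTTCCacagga
Rps10 (chr17:27635230-27635259, minus strand): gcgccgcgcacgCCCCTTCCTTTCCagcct
Rpl19 (chr11:98026909-98026938, plus strand): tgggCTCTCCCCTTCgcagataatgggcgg
Rps3 (chr7:99483695-99483724, minus strand): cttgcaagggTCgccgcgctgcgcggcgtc
Rps19 (chr7:24884577-24884606, plus strand): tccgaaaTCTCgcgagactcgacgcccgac

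In these windows the run was 9 letters for Rps9, 14 for Rpl14, 10 for Rplp2, 11 for Rps18, 13 for Rps10 and 11 for Rpl19. It was 2 letters for Rps3 and 4 for Rps19. Rps9, with a run, was at 348, 414 and 369 CPM in mutants and at 517, 469 and 455 CPM in controls. Rps3, with a short one, was at 589, 728 and 607 CPM in mutants and at 894, 724 and 704 CPM in controls, so both genes had control 1 as the highest library and mutant 1 as the lowest.

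Marker genes of other cells moved with the groups in part. The 10 acinar markers summed to between 236633 and 283511 CPM in mutants and between 252611 and 286899 CPM in controls, and none was at 0 in all libraries. Of these, 6 had negative and 4 positive log2 fold changes, and 4 were lower without overlap, against 9.86% of all genes tested. The 8 duct markers summed to 429 to 602 CPM in mutants and 632 to 716 CPM in controls, without overlap. Among the duct markers, 6 had negative and 2 positive log2 fold changes. At an unadjusted edgeR p under 0.05, 4 were lower and 1 higher, against 7.36% and 5.41% of all genes. The 6 adipocyte markers summed to 39.3 to 55.3 CPM in mutants and 70.5 to 126 CPM in controls, also without overlap. The 7 macrophage markers moved the other way, at 276.2 to 383 CPM in mutants and 231 to 275.9 CPM in controls, just without overlap, and edgeR called 2 of them higher and 1 lower. The defining adipocyte gene Adipoq was at 0, 2.44 and 0 CPM in mutants and at 3.01, 10.1 and 14.6 CPM in controls.

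The 9 endocrine markers summed to 3089 to 3390 CPM in mutants and 3021 to 4903 CPM in controls, with control 1 the highest, as it was for most ribosomal protein genes. The 9 mesenchyme markers summed to 3378 to 4756 CPM in mutants and 3157 to 5114 CPM in controls, and the 6 endothelial markers to 233 to 247 CPM in mutants and 226 to 240 CPM in controls. The 4 erythroid markers in the files summed to 15.04 to 37.8 CPM in mutants and 22.3 to 158 CPM in controls. The 9 lymphocyte markers summed to 7.81, 114 and 7.79 CPM in mutants 1 to 3, so mutant 2 stood alone, and to 8.57 to 33.8 CPM in controls. The groups overlapped in these 5 lists. The part of these cells in the level of the ribosomal protein genes was not tested.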

How the data were processed

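The deposited values are whole-number counts per gene symbol, 1 file per library. The submitters' processing notes name STAR, HTSeq 0.6.1p1, cutadapt 1.13 and DESeq2 on mm10, without their roles. For the annotation, strand setting, read length and handling of reads with several matches, the sources used here give nothing. Counts of all genes were fitted with edgeR 4.0.16 (quasi-likelihood test, TMM scaling, filterByExpr, no covariate) in R 4.3.3, which left 13017 genes. p-values were adjusted by Benjamini-Hochberg over all of them, with a threshold of 0.05, and the SE was obtained from the log2 fold change and the square root of F. DESeq2 1.42.0 was an alternative. CPM used the TMM-scaled library size. Within groups, chi-square per degree of freedom between libraries lay between 5.83 and 20.5, so none was a near copy of another and all 6 were kept. The measure does not show that a library fits its group. Control 1 against controls 2 and 3 gave the highest values, 20.5 and 18.9, and control 2 against control 3 gave 6.14. Floors cover counting error only, whereas SE and SD also hold the spread between libraries.

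Shared sequence was the percentage of all stretches of 50 bases, on either strand, of 1 GENCODE M21 transcript per gene that occur in annotated transcripts of genes elsewhere. Copies outside the annotation were not counted. All 84 symbols were matched, 82 of them by current symbol. Start regions came from RefSeq (GRCm38.p6), and the start with the longest run was kept for each gene. The scripts were tested on simulated data. Named genes were Prox1, called members, the 5 highest and 5 lowest fold changes, the 6 highest mean CPM, members low in a single library, those nearest to 50 counts, tissue paralogs, Fau and Rack1; others are said to be named after their values were seen. Some genes that this rule names are not reported here, and the plots by gene leave them out. The members, lists and this rule were chosen with earlier results of these data known.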

Additional observations from a re-analysis of the deposited data

How the results depend on the processing

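The median log2 fold change of the ribosomal protein genes was negative under every alternative run, from -0.36 without control 2 to -0.13 with library totals alone, where the median of all genes was 0.17. Called ribosomal protein genes, 1 in the main result, numbered 0 with library totals alone, 7 with the DESeq2 Wald test, 2 with no filter beyond 1 count, 0 to 4 when 1 library was left out, 0 without mutants 1 and 2 and 0 among members with under 50% shared sequence, where Rps19 is not a member. The last 2 settings were added after the data had been seen. Called genes overall numbered 268 in the main result, 125 to 301 when 1 library was left out and 78 without mutants 1 and 2, where fewer samples enter the fit. With library totals alone 59.4% of 320 called genes were higher, against 26.5% of 268. The difference in the share of counts, mutant minus control, was -0.0628 percentage points in the main result, -0.275 outside the 15 most abundant genes and -0.195 on the TMM-scaled size, and -0.141 to -0.0148 when 1 library was left out.

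Single genes near 0 changed sign, with the cause not tested. With library totals alone the log2 fold change was 0.11 for Rplp1, 0.15 for Rpl10a, 0.17 for Rpl9 and 2.6e-05 for Rpl4. With upper quartile scaling it was 1.2e-05 for Rpl10a and 0.014 for Rpl9. With 1 library left out it ranged from -0.095 to 0.040 for Rpl10a, -0.23 to 0.28 for Rpl9, -0.16 to 0.17 for Rplp0, -0.14 to 0.039 for Rplp1 and -0.035 to 0.21 for Rpl10. Without mutants 1 and 2 it was 0.055 for Rpl10a. Shared sequence of at least 50% held for 26 genes with stretches of 75 bases, against 33 with 50. With robust dispersion the called gene was Rpl36 and no longer Rps19. Depth limits the 14 tested genes under 10 CPM, whose SE lay between 0.16 and 0.92 with a median of 0.22. The highest SE was that of Rpl21, whose libraries were split into low and high ones.

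The replicate numbers were not used as pairs in the main result. Deviations from the group means correlated at 0.063, 0.0066 and -0.057 between libraries of the same number, and at -0.079 to 0.093 between unlike numbers. Correlations over all genes cannot show whether samples of the same number shared a litter or day. With the replicate block 241 genes and 1 ribosomal protein gene were called, the median was -0.30 with 66 of 69 negative, and Rpl9 was at 0.031.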
